A study of Mus musculus with 4 samples.

Results

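The homeobox genes Rhox5, Rhox6 and Rhox9, the germ cell and placental gene Tex19.1 and the early embryonic gene Dppa1 were followed in 4 single mouse embryos at embryonic day 5.5. These 5 genes were taken by name from a table of 47885 rows, and all 5 were found in it by Ensembl identifier. All embryos were of the C57BL/6 background. The 2 control embryos (WT) were labelled Mettl14+/+ and the other 2 (KO) Mettl14-/-, with no other treatment or allele given; the Mettl14 protein pairs with Mettl3 to methylate adenosine in RNA. Genotypes were read, once sequencing was done, from qPCR of Mettl14 in the amplified cDNA. Embryos expressing the gene served as controls, so heterozygous embryos may be among them. Each library came from 1 whole embryo, amplified by Smart-Seq.

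Rhox genes form a cluster of reproductive homeobox genes on the X chromosome, and several of them are used in placenta, testis or ovary. Rhox5, once called Pem, is known from trophoblast and extraembryonic endoderm, and Rhox6 and Rhox9, once called Psx1 and Psx2, from placenta and germ cells. In the embryo proper, DNA methylation is laid down on Rhox and Tex19.1 promoters around implantation, and these genes become active in cells that lack DNA methyltransferases; extraembryonic tissues carry less methylation and keep such genes on. Tex19.1 encodes a mammal-specific protein that restrains retrotransposons in germ cells and placenta. Dppa1 was named among developmental pluripotency associated genes of early mouse embryos. Methylation itself was not measured in these samples.

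Promoter windows from RefSeq (build GRCm38.p6, 250 bases before to 50 after the start) are shown for the 3 members that had one, since the group is named for its sensitivity to methylation of CG sites, which are in capitals. The paralog Tex19.2 is shown for contrast with Tex19.1. Rhox6 and Rhox9 had no entry.
Rhox5, chrX:37754358-37754657, plus strand: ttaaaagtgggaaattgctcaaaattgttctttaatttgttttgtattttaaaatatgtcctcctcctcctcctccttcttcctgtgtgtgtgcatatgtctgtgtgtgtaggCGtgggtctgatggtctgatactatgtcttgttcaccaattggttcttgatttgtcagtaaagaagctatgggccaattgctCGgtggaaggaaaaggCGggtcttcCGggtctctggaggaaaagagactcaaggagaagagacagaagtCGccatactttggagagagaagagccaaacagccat
Tex19.1, chr11:121145893-121146192, plus strand: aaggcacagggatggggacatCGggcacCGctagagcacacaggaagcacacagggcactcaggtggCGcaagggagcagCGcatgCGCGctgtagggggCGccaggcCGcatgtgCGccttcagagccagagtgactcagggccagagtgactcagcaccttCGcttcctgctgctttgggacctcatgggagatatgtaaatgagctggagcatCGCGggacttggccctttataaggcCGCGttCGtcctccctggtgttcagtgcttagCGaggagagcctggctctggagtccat
Tex19.2, chr11:121118628-121118927, minus strand: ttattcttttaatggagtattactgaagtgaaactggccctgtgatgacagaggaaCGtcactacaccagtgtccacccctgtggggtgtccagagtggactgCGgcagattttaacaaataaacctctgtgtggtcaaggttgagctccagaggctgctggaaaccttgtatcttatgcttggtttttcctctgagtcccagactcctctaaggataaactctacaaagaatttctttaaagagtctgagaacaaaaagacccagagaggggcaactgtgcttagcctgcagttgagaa
Dppa1, chr11:46629225-46629524, minus strand: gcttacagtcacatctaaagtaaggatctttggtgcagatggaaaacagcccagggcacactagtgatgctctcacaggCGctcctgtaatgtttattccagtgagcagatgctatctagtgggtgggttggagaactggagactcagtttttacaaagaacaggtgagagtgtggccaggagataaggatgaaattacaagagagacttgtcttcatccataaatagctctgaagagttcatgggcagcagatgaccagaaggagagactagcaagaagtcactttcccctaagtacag

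The Tex19.1 window held 16 CG sites, and 33.0% of 32851 windows of the same length held as many or more; the window of Tex19.2 held 2. The Rhox5 window held 5 and that of Dppa1 held 1, against a median of 7 over all windows. The observed over expected ratio of CG was 0.575 for Tex19.1, 0.363 for Rhox5, 0.131 for Tex19.2 and 0.0661 for Dppa1. The E2F motif TCCCGC, read on both strands, was present once in the Tex19.1 window and in none of the other 3 windows; 20.0% of all windows held it. The E-box CACGTG, found in 7.15% of windows, was in none of the 4. The RefSeq start of Rhox5 lies 50234 bases upstream of the start in GENCODE M21, so this window belongs to the far start of the gene, and the counts do not say which start was used.

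**Figure D1:**
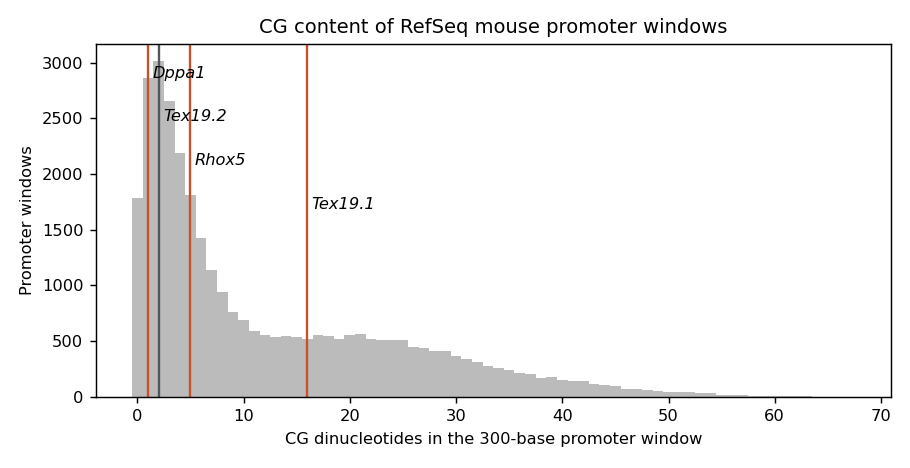
Number of RefSeq promoter windows (y axis) by the number of CG dinucleotides in 300 bases (x axis). Vertical lines mark Dppa1 (1), Tex19.2 (2, grey), Rhox5 (5) and Tex19.1 (16).

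Rhox6 and Rhox9 are close copies, which bears on how reads could be assigned to them. Their coding sequences, both of 681 bases, matched at 617 bases (90.6%), with an identical run of 161 bases, longer than a read of 150 bases. A stretch inside that run (coding bases 167 to 256) and the stretch where they differed most (bases 373 to 462, 22 differences in capitals) are shown from GENCODE M21.
Rhox6 and Rhox9, identical stretch: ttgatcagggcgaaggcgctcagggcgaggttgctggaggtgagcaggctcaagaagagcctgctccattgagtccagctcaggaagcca
Rhox6, most different stretch: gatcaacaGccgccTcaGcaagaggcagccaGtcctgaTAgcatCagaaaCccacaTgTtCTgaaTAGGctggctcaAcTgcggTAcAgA
Rhox9, most different stretch: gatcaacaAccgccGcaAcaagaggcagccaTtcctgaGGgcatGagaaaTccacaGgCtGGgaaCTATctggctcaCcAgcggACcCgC

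Of all 50-base words in the Rhox6 transcript, 16.5% also occurred in another gene, which was Rhox9; for Rhox9 the share was 6.28%. Rhox5 had 0 shared words, and its coding sequence matched those of Rhox6 and Rhox9 at 53.8% and 61.6% of aligned bases. With gaps counted as well the matches were 48.7% and 47.4%, so their order depended on the gaps. Tex19.1 shared 2.67% of its words with Tex19.2. Dppa1 shared 6.08% with the noncoding gene Gm12171, which had 0 counts in all 4 libraries. No exon of the 5 genes overlapped an exon of another annotated gene.

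Libraries held 16108062 (WT 1), 20121289 (WT 2), 20248636 (KO 1) and 28698541 (KO 2) counts. Levels are given as CPM, counts scaled to the library size, with TMM factors. Mettl14 stood at 34.0 and 31.6 CPM in WT and at 4.63 and 8.04 CPM in KO. Libraries correlated across genes (log2 CPM) at 0.943 within WT and 0.923 within KO, and at 0.879 to 0.93 between the groups. All 4 embryos had 0 counts for Ddx3y, Eif2s3y and Kdm5d on the Y chromosome, and at most 0.236 CPM for Uty. Xist, the noncoding RNA of X inactivation, stood at 202, 59.8, 69.6 and 6.06 CPM in WT 1, WT 2, KO 1 and KO 2; its locus overlaps the antisense gene Tsix, and these reads carry no strand. Groups were compared over 15563 genes that passed a low-count filter, by edgeR's quasi-likelihood test with Benjamini-Hochberg adjustment.

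None of the 4 members that passed the filter differed between KO and WT at an adjusted p under 0.05, where the same test called 0.0% of all genes in either direction. DESeq2 called none of the 4 either (lowest adjusted p = 0.754); it called 0.964% of genes as higher and 0.578% as lower. Unadjusted edgeR p-values were under 0.05 for 0 of the 4 members, against 7.82% of all genes. Rhox5 was the 1 tested member whose groups did not overlap, with both KO embryos below both WT embryos, as was true of 18.8% of all genes. Dppa1, too rare for the test, had counts only in KO embryos. In whole embryos, fewer cells of a type and less RNA per cell cannot be told apart. The plot of levels by embryo shows all 5.

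**Figure D2:**
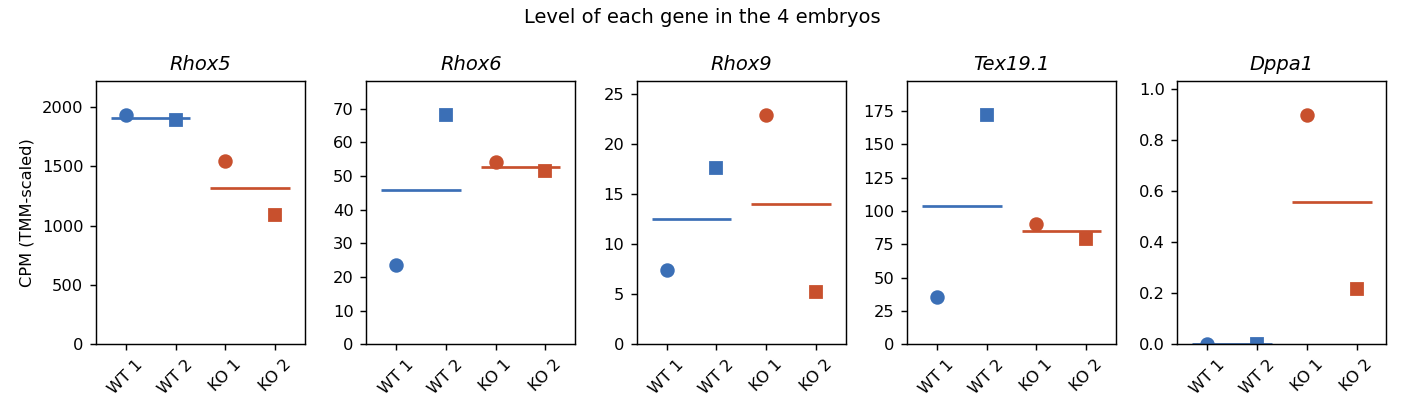
CPM (y axis, from 0) of each gene in WT embryos (blue) and KO embryos (orange), with circles for replicate 1, squares for replicate 2 and lines for group means. Rhox5 lay lower in both KO embryos, Rhox6, Rhox9 and Tex19.1 overlapped between groups, and Dppa1 was at 0 in both WT embryos.

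Rhox5 (ENSMUSG00000095180, X chromosome, 37804842 to 37808876 on mm10, plus strand) was among the most abundant RNAs of the embryo. It had 32734 and 35437 counts in WT and 32665 and 30442 counts in KO, or 1930 and 1894 CPM in WT 1 and WT 2 and 1542 and 1092 CPM in KO 1 and KO 2. Per kilobase of exon it ranked 4 and 5 among all genes in the WT embryos, 6 in KO 1 and 21 in KO 2. The WT embryos were within 1.02-fold of each other, while the KO embryos differed 1.41-fold. The WT mean was 1912 ± 25.5 CPM and the KO mean 1317 ± 318 CPM (SD, n = 2), a log2 fold change of -0.54 (SE 0.27, 95% interval -1.15 to 0.08, edgeR adjusted p = 0.714). KO 2 was the lowest library, and without it the log2 fold change was -0.30.

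Rhox6 (ENSMUSG00000006200, X chromosome, 37826910 to 37829857, plus strand) had 23.6 CPM in WT 1, 68.0 in WT 2, 54.2 in KO 1 and 51.4 in KO 2. Both KO embryos lay between the WT embryos, which differed 2.88-fold, and the KO embryos differed 1.05-fold. The log2 fold change was 0.20 (SE 0.50, 95% interval -0.94 to 1.35, edgeR adjusted p = 0.97); it was -0.35 without WT 1 and 1.17 without WT 2.

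Rhox9 (ENSMUSG00000068048, X chromosome, 37899097 to 37901770, minus strand) had 7.43 CPM in WT 1, 17.6 in WT 2, 22.9 in KO 1 and 5.24 in KO 2. Here the KO embryos enclosed the WT embryos, and the KO embryos differed 4.36-fold. The log2 fold change was 0.16 (SE 0.72, 95% interval -1.50 to 1.82, edgeR adjusted p = 0.985), and its sign turned to -1.18 without KO 1 and to -0.35 without WT 1. Rhox6 exceeded Rhox9 in all 4 libraries, by 3.17-, 3.86-, 2.37- and 9.81-fold in CPM in WT 1, WT 2, KO 1 and KO 2. Summed over both genes, which removes the effect of reads swapped between them, the level was 31.0 and 85.7 CPM in WT and 77.0 and 56.6 CPM in KO, so the groups still overlapped.

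Tex19.1 (ENSMUSG00000039329, chromosome 11, 121146143 to 121148319, plus strand) had 35.7 CPM in WT 1 and 172 in WT 2, the widest gap between WT embryos among the members (4.81-fold). KO 1 and KO 2 lay between them at 90.2 and 79.1 CPM. The log2 fold change was -0.29 (SE 0.62, 95% interval -1.72 to 1.13, edgeR adjusted p = 0.966), and it was 1.26 without WT 2 and -1.01 without WT 1. WT 1 was the lowest library for both Tex19.1 and Rhox6.

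Tex19.2, the paralog near Tex19.1 on chromosome 11, is known from testis. It had 5 and 49 counts in WT and 88 and 269 counts in KO, or 0.295 and 2.62 CPM against 4.15 and 9.65 CPM. Tex19.2 thus had both KO embryos above both WT embryos, as did 19.4% of all genes tested. Its log2 fold change was 2.24 (SE 0.97, 95% interval -0.0042 to 4.47, edgeR adjusted p = 0.638). It was 4.53 without WT 2, 1.44 without WT 1 and 1.51 without KO 2. The difference between the changes of the paralogs was not tested.

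Dppa1 (ENSMUSG00000064010, chromosome 11, 46607772 to 46629261, minus strand) had 0 counts in both WT embryos, 19 in KO 1 (exact Poisson 95% interval 11.4 to 29.7) and 6 in KO 2 (2.20 to 13.1). In CPM these were 0.897 and 0.215. Against a floor of 3 counts over both WT libraries (0.0841 CPM), the pooled KO level of 0.51 CPM was at least 6.06-fold higher with the KO count taken as it stands, and at least 3.92-fold higher at the lower end of its exact interval (16.2 counts). Without KO 1 the bound of 6.06-fold, 2.60 on the log2 scale, was 1.36 on that scale. Both KO embryos lay above both WT embryos. That held for 19.4% of the genes tested, which do not include Dppa1, and the share among genes as rare was not counted. With no low-count filter the edgeR adjusted p was 0.671 for this gene.

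In level per kilobase of exon, averaged over the 4 embryos, the members ranked as Rhox5 (2141 CPM per kb), Tex19.1 (50.3), Rhox6 (48.8), Rhox9 (5.34) and Dppa1 (0.177). Rhox5 exceeded Tex19.1 in all 4 libraries by 27.4- to 134-fold. Tex19.1 and Rhox6 could not be ordered, since Tex19.1 was higher per kilobase in 1 library, WT 2, and lower in the other 3. Rhox6 exceeded Rhox9, and Rhox9 exceeded Dppa1, in all 4 libraries.

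Along the cluster, which spans 916 kb, GENCODE M21 lists 34 protein-coding Rhox genes. Of these 10 had 0 counts in every library and 14 passed the filter. Rhox5 made up 95.2% of all Rhox counts in WT 1 (Wilson 95% interval 95.02 to 95.47), 92.7% in WT 2, 92.3% in KO 1 and 92.8% in KO 2. It thus dominated the cluster in every embryo, as the plot along the cluster shows.

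**Figure D3:**
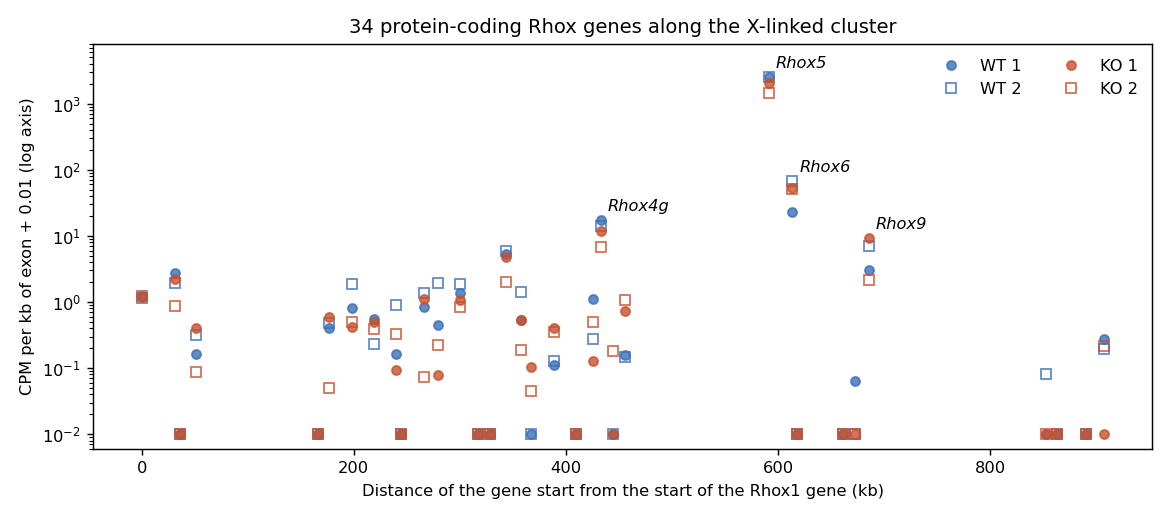
Level of the 34 protein-coding Rhox genes in CPM per kilobase of exon plus 0.01 (log y axis) by distance of the gene start from that of Rhox1 (x axis, kb), for WT (blue) and KO (orange) embryos. Rhox5 stood between 1449 and 2559 in the 4 embryos, while points at the bottom are genes with 0 counts.

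Of the other Rhox genes, 7 reached a mean of 1 CPM in either group, namely Rhox1, Rhox2a, Rhox2b, Rhox4c, Rhox4d, Rhox4e and Rhox4g. Rhox4g, the highest of them, had 39.9 and 32.3 CPM in WT and 27.2 and 15.8 CPM in KO (log2 fold change -0.75, SE 0.41, edgeR adjusted p = 0.755). Rhox4e and Rhox4d differed by -0.70 and -0.79 on the log2 scale, Rhox4c by -0.91, Rhox2a by -0.58, Rhox2b by -1.55 and Rhox1 by 0.03. Rarer than these were Rhox2h and Rhox4f, named after their values were seen. They were the 2 tested Rhox genes with both KO embryos above both WT embryos. Of 14 tested Rhox genes, KO lay above WT without overlap for 2 and below for 5, against 19.4% and 18.8% of all genes. For Rhox2h each WT embryo gave 2 counts, against 12 in KO 1 and 23 in KO 2. Its log2 fold change was 2.57 (SE 1.55, edgeR adjusted p = 0.773). The 8 Rhox2 genes together went the other way, with 4.83 and 6.89 CPM in WT and 3.45 and 2.98 CPM in KO. Words shared among Rhox2 genes were not counted. For Rhox4f WT 1 and WT 2 gave 4 and 5 counts, against 19 and 22 from KO 1 and KO 2 (log2 fold change 1.72, SE 1.35). Single Rhox4 counts are uncertain, since 92.0% of the 50-base words of Rhox4e and 72.4% of those of Rhox4g occur in other genes. Summed over 8 Rhox4 genes the level was 59.1 and 54.7 CPM in WT and 46.6 and 24.2 CPM in KO. The groups of this sum did not overlap, it was lowest in KO 2, and Rhox4g made up most of it in every library. How often such sums do not overlap between groups over all genes was not counted. Of 11 tested Rhox genes besides the members, 0 passed the test, 5 had higher and 6 lower values in KO, and their median log2 fold change was -0.58, against -0.03 over all genes. The median was -1.11 without KO 1 and -0.11 without KO 2. Those medians are over the 15 and 16 other Rhox genes that passed the filter then, not the same 11.

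Genes around the cluster gave a measure of the X-linked neighbourhood. Of the 12 nearest named protein-coding genes outside it, 6 on each side, 9 were tested; 7 had higher and 2 lower values in KO, with a median of 0.17, and 0 passed. Over 571 tested X-linked genes outside the Rhox cluster the median log2 fold change was 0.07, and it was -0.03 over autosomal genes.

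Markers of the tissues of the egg cylinder were set beside the members. The 12 markers of extraembryonic ectoderm, the trophoblast progenitor tissue, were all detected; they summed to 817 and 947 CPM in WT and to 1351 and 794 CPM in KO, and 0 of 12 passed the test (8 higher and 4 lower in value, median 0.18). Gata3, a trophoblast factor, had the smallest p of these, with 15.1 and 11.0 CPM in WT and 50.3 and 24.1 CPM in KO. Sox21, next by p, went the other way, with 20.0 and 12.1 CPM in WT and 9.54 and 2.94 CPM in KO. Bmp4 and Tead4 followed, with log2 fold changes of 0.61 and 0.67. Elf5 was named outside this order. Elf5, whose promoter methylation separates trophoblast from embryo, had 118 and 143 CPM in WT and 155 and 102 CPM in KO. As a percentage of the marker sum, Rhox5 stood at 236 and 200 in WT and at 114 and 138 in KO, while Rhox6 stood at 2.89 and 7.18 in WT and at 4.01 and 6.47 in KO. The scaled Rhox5 level was thus lower in both KO embryos, and the scaled Rhox6 level overlapped between groups. The share of all genes that lay lower in both KO embryos after such scaling was not counted.

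Markers of other tissues also differed in value between the groups. The 8 visceral endoderm markers, all detected, summed to 659 and 1756 CPM in WT and to 249 and 316 CPM in KO, with lower values in KO for 8 of 8. By edgeR 0 of these 8 passed, while DESeq2 called 5 of them as lower (Amn, Apoa1, Apob, Cubn and Ttr), against 0.578% of all genes. With no low-count filter edgeR called the same 5, against 0.398% of all genes, and with the replicate block Amn, Apoa1 and Ttr, against 0.122%. With any 1 library left out edgeR called between 0 and 4 of the 8, Apob alone without KO 1, where 1.25% of all genes were called lower. That share holds for the fit without KO 1 alone, since each other fit with 1 library left out called fewer of all genes as lower. Among the 8 markers Ttr, a thyroid hormone carrier, had 68.7 and 173 CPM in WT and 13.7 and 25.7 CPM in KO. Markers of differentiated trophoblast summed to 374 and 575 CPM in WT and to 1833 and 1039 CPM in KO. Of the 8, 5 were tested, with higher values in KO for 5 of 5. Tpbpa and Prl2c2 stood at 0 in every library, and Gcm1, also untested, had 6 counts in WT 2 alone. By edgeR 0 of the 5 were called, while DESeq2 called 2 as higher, Plac1 and Prl3d1, against 0.964% of all genes. With no low-count filter edgeR called Hand1 and Plac1 as higher, against 0.619% of all genes. With the replicate block it called Plac1, against 0.334%. Epiblast markers, all 8 detected, summed to 2828 and 2704 CPM in WT and to 2118 and 3158 CPM in KO. The 6 maternal decidua markers summed to 15.2 and 23.3 CPM in WT and to 2.55 and 1.18 CPM in KO. Hoxa11 stood at 0 in every library. Of 4 tested, edgeR called 0 and DESeq2 called 2 as lower, Dcn and Hoxa10, against 0.578% of all genes. With no low-count filter edgeR called Col1a2, Dcn and Hoxa10 as lower, against 0.398% of all genes. The part of these tissue markers in the values of Rhox5, Tex19.1 or Dppa1 was not tested. The 5 parietal endoderm markers, all detected, summed to 227 and 770 CPM in WT and to 322 and 386 CPM in KO. By edgeR 0 were called, while DESeq2 called 1, Thbd, as higher, against 0.964% of all genes. With no low-count filter edgeR called Thbd as higher and Srgn as lower, against 0.619% and 0.398% of all genes. DESeq2 called 0 markers of extraembryonic ectoderm, epiblast, germ cells or blood. Primordial germ cell markers summed to 33.8 and 31.7 CPM in WT and to 9.35 and 25.4 CPM in KO, with Prdm14 at 0 in every library, and blood markers to at most 2.26 CPM.

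**Figure D4:**
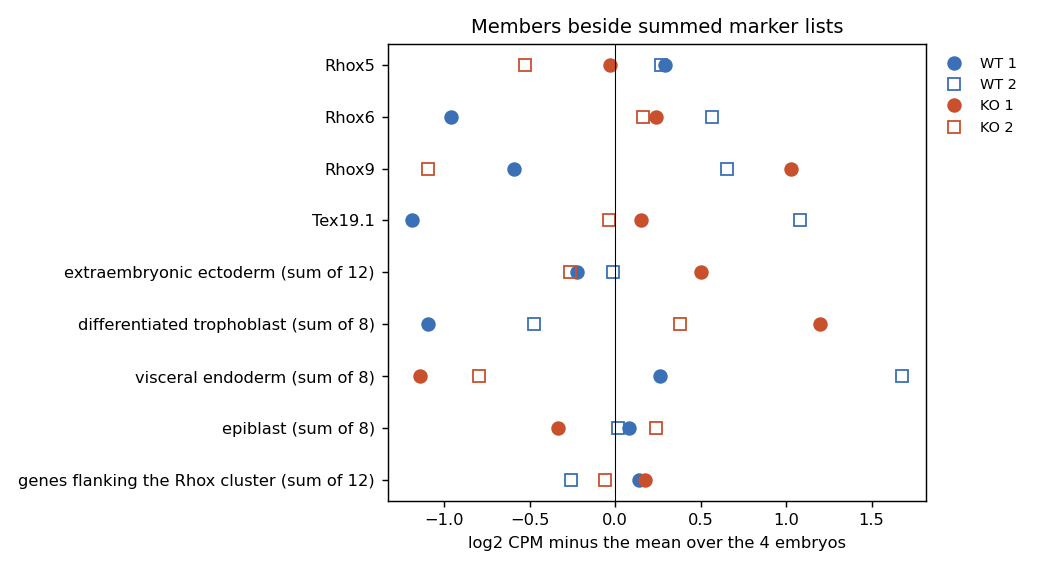
Level in each embryo as log2 CPM minus the mean over the 4 embryos (x axis), for 4 members and for summed marker lists (y axis); WT is blue, KO orange, circles are replicate 1 and open squares replicate 2. Visceral endoderm was lower and differentiated trophoblast higher in both KO embryos, while Rhox6, Rhox9 and Tex19.1 had WT 1 below WT 2.

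The genes whose level followed each member most closely over the 4 embryos were sought among 12773 protein-coding genes by the root mean square difference of centred log2 CPM. For Rhox5 these were Klhl12 (0.029), Pnpla6 (0.035) and Hist1h1e (0.036), and 757 genes lay within 0.2 of it. For Rhox6 they were Pomgnt1 (0.043), Kctd10 (0.063) and Large2 (0.065), with 98 genes within 0.2. For Rhox9 they were Slc35f5 (0.088), Glis1 (0.131) and Nr2f2 (0.133), and for Tex19.1 Akt1 (0.144), Gpr146 (0.146) and Tdrp (0.151), with 9 and 7 genes within 0.2. A profile over 4 embryos is short, and the pattern of Rhox5 was common.

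Of 9 listed genes that act in DNA methylation or demethylation, all detected, 0 passed the test (7 lower and 2 higher in value, median -0.17). KO lay above WT without overlap for 2 of the 9 and below for 3, against 19.4% and 18.8% of all genes. Dnmt3b, a de novo methyltransferase and epiblast marker, had 1210 and 870 CPM in WT and 559 and 705 CPM in KO (log2 fold change -0.72, SE 0.29). Uhrf1, which guides maintenance methylation, had 187 and 193 CPM in WT and 112 and 95.2 CPM in KO. Tet2, which oxidises methylcytosine, had 3.83 and 4.81 CPM in WT and 17.8 and 7.25 CPM in KO, while Dnmt1 differed by -0.53. Of 15 genes for repressors known to act on germline or Rhox promoters 0 passed, with a median of -0.06. The lowest unadjusted p-values among them belonged to Trim28, Hells, Max and Cbx3. Hells, a chromatin remodeller needed for methylation, differed by -0.63, Trim28, the corepressor of zinc finger proteins, by -0.50 and the heterochromatin protein gene Cbx3 by -0.43. Max, a DNA-binding partner in repressor complexes at germline promoters, differed by 0.59. Of the 15 repressor genes, 1 (Max) had both KO embryos above both WT embryos, against 19.4% of all genes. Another 4, with Trim28, Hells and Cbx3 among them, had both KO embryos below both WT embryos, against 18.8% of all genes.

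Other germline genes that methylation silences gave values in both directions. Of 25 genes, all tested, 10 had higher and 15 lower values in KO (median -0.21), and 0 passed by edgeR with the low-count filter. DESeq2 called 1 as higher (Rpl10l) and 2 as lower (Sycp3 and Tex11), against 0.964% and 0.578% of all genes. With no low-count filter edgeR called the same 3, with adjusted p-values of 0.0039 (Rpl10l), 0.019 (Sycp3) and 0.032 (Tex11), against 0.619% of all genes called higher and 0.398% lower. Rpl10l also passed by edgeR with the replicate block (adjusted p = 0.041) and without KO 1 (adjusted p = 0.022), where 0.334% and 0.792% of genes were called higher. Sycp3, of the meiotic chromosome axis, had 18.3 and 20.5 CPM in WT and 4.49 CPM in both KO embryos. Tex11, an X-linked meiotic gene, had 5.84 and 8.34 CPM in WT and 0.519 and 1.29 CPM in KO. Rpl10l, a retrocopy of the ribosomal protein gene Rpl10, had 54.7 and 77.9 CPM in WT and 140 and 269 CPM in KO; 7.60% of its 50-base words occur in another gene, Gm14460. Hormad1, another axis gene, differed by -0.92 (SE 0.36). For these 4 genes the groups did not overlap, as for 38.2% of all genes tested. The 4 were picked by smallest p, so that share is not a fair reference for them. Of all 25 genes, KO lay above WT without overlap for 6 and below for 10, against 19.4% and 18.8% of all genes.

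Among Dppa genes, Dppa2 and Dppa4, partners at CG-rich promoters, differed by -0.12 (SE 0.35) and 0.31 (SE 0.28). Dppa5a, a pluripotency gene, had 989 and 958 CPM in WT and 1136 and 1169 CPM in KO. Dppa3, which protects the maternal genome from demethylation, had 24.2 and 24.5 CPM in WT and 4.67 and 13.6 CPM in KO. The log2 fold change of Dppa3 was -1.41 (SE 0.55), or -0.76 without KO 1 and -2.37 without KO 2, and 0 of the 4 genes passed the test.

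**Figure D5:**
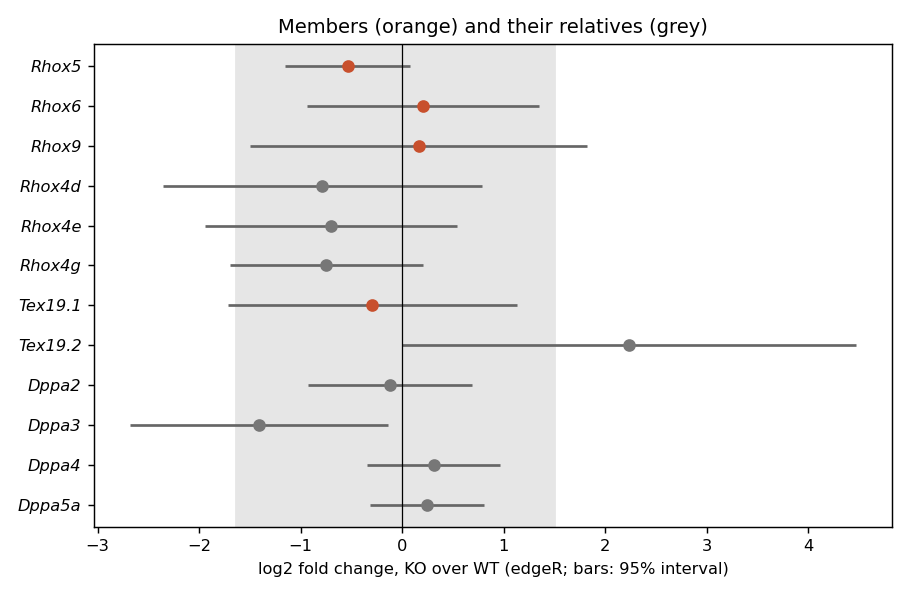
Log2 fold change of KO over WT with its 95% interval (x axis) for members (orange) and related genes (grey), over a band from the 5th to the 95th percentile of all genes tested (-1.64 to 1.50). All 4 tested members lay inside the band, and Tex19.2 lay above it.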

How the data were processed

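Members and gene lists were chosen with earlier results of these data known. The authors deposited raw read counts per gene for 4 libraries; TopHat, Cufflinks and mm10 are named, without their roles, per the submitters' processing notes. Not given in the sources used here were the read counter, its strand setting and its gene models, and reads shared by near-identical genes may have been split or dropped. Of 47885 rows 46574 matched GENCODE M21, 816 had no Ensembl identifier and 495 were not found. Counts were tested with edgeR 4.0.16 in R 4.3.3 (filterByExpr with minimum count 10 and total 15, TMM, robust quasi-likelihood F test) over 15563 genes; SE is the absolute log2 fold change over the square root of F. CPM used TMM-scaled library sizes, and log2 CPM a prior count of 2. A count was worth 0.0589, 0.0534, 0.0472 and 0.0359 CPM in WT 1, WT 2, KO 1 and KO 2. Alternatives were DESeq2 1.42.0, limma-voom 3.58.1, other scalings and filters, a replicate block and leaving out each library. Named genes were every member, other Rhox genes with at least 1 CPM in a group, up to 4 genes per list by smallest p, and the 3 genes most like each member. Embryos were separate animals; p-values measure the spread among them. Poisson and Wilson intervals and floors cover counting error only, while intervals of log2 fold changes come from the edgeR SE and include the spread among embryos.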

Additional observations from a re-analysis of the deposited data

How the results depend on the processing

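No gene passed under edgeR with all libraries, nor with limma-voom, RLE size factors, library totals or at least 50 counts in 2 libraries. DESeq2 gave 150 higher and 90 lower and no low-count filter 157 and 101. With any 1 library dropped, between 14 and 133 genes were higher and between 1 and 209 lower. None of the 4 tested members passed under any of the 11 alternatives. Rhox5 had a negative sign in all 11, and dropping single libraries moved it between -0.73 and -0.30. Rhox6 ran from -0.35 to 1.17, Rhox9 from -1.18 to 0.93 and Tex19.1 from -1.01 to 1.26; Rhox9 was -0.14 and Tex19.1 0.0936 by limma-voom, and the cause was not tested. The Dppa1 bound ran from 1.36 to 3.42 on the log2 scale, and DESeq2, limma-voom and the stricter filter did not test that gene. List medians ran, with 1 library left out, from -1.11 to -0.11 for other Rhox genes and from -0.55 to 0.0158 for germline genes. They ran from -0.48 to -0.20 for DNA methylation genes, from -0.12 to -0.03 for repressors and from -0.14 to 0.31 for Dppa genes. The range was -0.23 to 0.45 for extraembryonic ectoderm and -0.06 to 0.26 for genes flanking the cluster. The sign turned without KO 1 for germline and extraembryonic ectoderm genes, without KO 2 for Dppa genes and without WT 2 for flanking genes. Among other Rhox genes 11 were tested with all libraries and 13 to 16 with 1 left out. Among flanking genes 9 were tested with all libraries, and 9 or 10 with 1 left out. With 100-base words the shared part was 6.81% for Rhox6, 2.45% for Rhox9 and 0.0% for Tex19.1 and Dppa1.

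No label ties equal replicate numbers to a common litter or day, and such libraries share a number alone; differences between replicates correlated at 0.329 between WT and KO across genes. The replicate block gave 52 higher and 19 lower genes, and moved Rhox9 to -0.0651 and Tex19.1 to 0.10, with no member called. Depth limits Dppa1, whose 25 counts in KO carry an exact interval of 16.2 to 36.9.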
